A study of Mus musculus with 8 samples.

Results

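Glucose and amino acid transporters are the membrane proteins through which cells take up sugars, amino acids, taurine, creatine and some neurotransmitters. They were taken here as every gene symbol of the solute carrier families 1, 2, 3, 6, 7, 38 and 43, which gave 69 of the 25526 symbols listed. Of these, 43 had at least 1 CPM in 4 or more of the 8 libraries and are described one by one. CPM are counts per 1000000 counts of the library, with library sizes scaled as given under processing. Bulk RNA sequencing libraries came from aortas of male mice heterozygous for the C1041G missense allele of Fbn1, a mouse model of Marfan syndrome. There were 4 mice aged 2 years, an age at which the series describes aneurysm growth as arrested, and 4 mice aged 12 weeks, when aneurysms were growing. Both groups carry the allele, so nothing here separates the effect of age from that of the genotype.

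Glucose enters most cells through facilitative carriers of family 2, of which GLUT1 (Slc2a1) serves basal uptake and GLUT4 (Slc2a4) moves to the surface of muscle and fat cells in response to insulin. Many amino acid exchangers are pairs of a heavy chain, mainly CD98 (Slc3a2), and a family 7 light chain that does the transport. Family 38 carriers bring in glutamine and other small neutral amino acids with sodium, and family 6 carriers use sodium and chloride. When amino acids run short, the transcription factor ATF4 binds response elements of the form TGATGNAA near genes for amino acid uptake and synthesis.

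At 2 years, Slc3a2 and 4 of 6 light chains measured at this level were higher, while 5 of 9 family 38 carriers were lower and 0 were higher. The light chain Slc7a11 and the hexose carrier Slc2a6 reached 1 CPM in 2-year libraries alone and the family 38 carrier Slc38a3 in 12-week libraries alone, so a difference is built into their being counted. Among the other 40 genes the lowest log2 fold change was that of the proline carrier Slc6a7 (-2.67). In all, 12 of the 43 genes rose and 9 fell, 48.8% in either direction (edgeR quasi-likelihood test, adjusted p below 0.05 over all 13978 genes tested). Over all genes tested 52.0% were called, 25.8% higher and 26.2% lower, so the share of transporters called was near that of genes at large. Among the 40 genes that reached 1 CPM in at least 1 library of each age, 10 rose and 8 fell, 45% in all. The median log2 fold change (2 years over 12 weeks) was -0.07 for these 40 genes and -0.06 for all 43, against -0.01 over all genes tested. Without 12 weeks replicate 3 and 2 years replicate 3 the counts among the 43 were 12 higher and 8 lower, where 46.4% of all genes were called, 22.7% higher and 23.7% lower. After a correction for transcript length and GC share, 14 were higher and 7 lower and their median was 0.23, where 51.0% of all genes were called, 22.6% higher and 28.4% lower. With a replicate block 13 were higher and 7 lower, where 46.0% of all genes were called, 22.3% higher and 23.8% lower. Values of the age groups did not overlap for 19 of the 43 genes, 44.2%, against 49.6% of all genes tested.

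**Figure D1:**
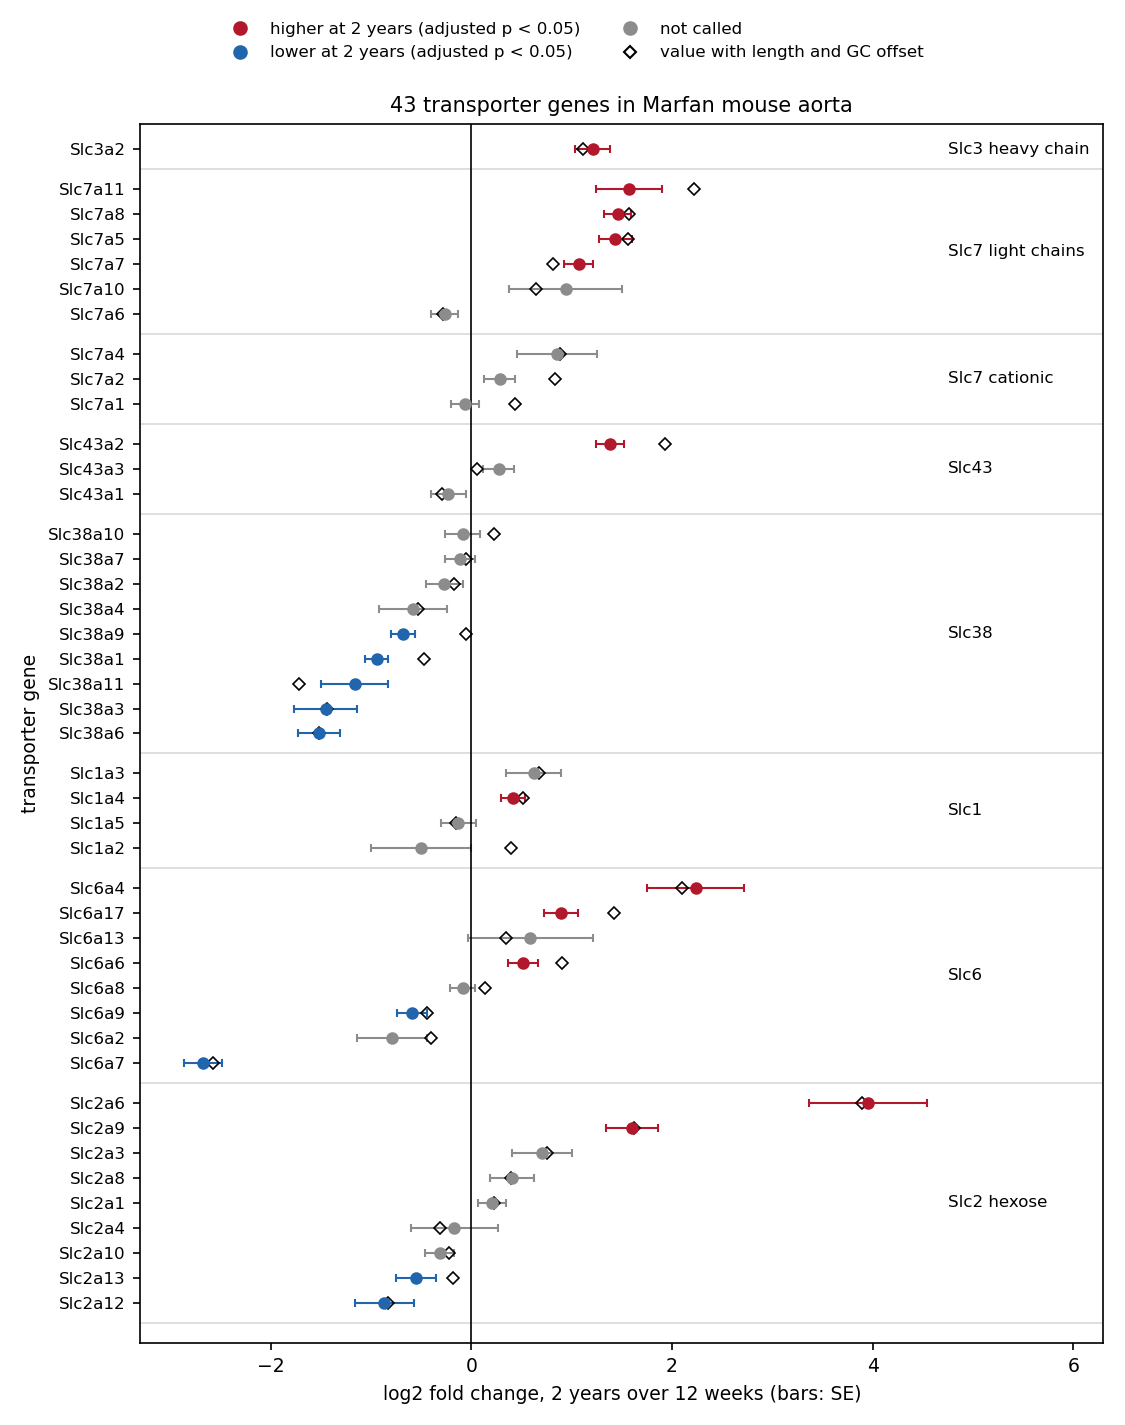
Log2 fold change of each of the 43 transporter genes, 2 years over 12 weeks, with its SE as a bar, grouped by family and role. Filled points are red where the gene was higher, blue where it was lower and grey where it was not called, and open diamonds give the length-corrected value. Heteromer chains lie to the right of 0 except Slc7a6, and all 9 family 38 points lie to the left, of which Slc38a10 is at 0.23 after correction.

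Library totals ranged from 16251986 to 33880690 counts. Transporter symbols took 0.170 to 0.231% of them. Smooth muscle markers were abundant in all libraries, with a summed level of 17681 to 26356 CPM at 2 years and 30778 to 36639 CPM at 12 weeks, where 6 of 9 markers fell and 0 rose. Macrophage markers rose in 10 of 12 cases, with a summed level of 2847 to 4061 CPM at 2 years and 856 to 1185 CPM at 12 weeks, and none of the 12 was at 0 counts throughout. In bulk tissue, fewer cells of a type and less RNA per cell cannot be told apart. The library of 12 weeks replicate 3 stood apart in heart muscle transcripts, and that of 2 years replicate 3 had the highest mitochondrial share, 10.3% against 4.14 to 7.33% in the others. T and NK cell (8 of 8), B and plasma cell (8 of 8), neutrophil (3 of 3) and red blood cell markers (7 of 7) rose too. Of fibroblast markers 3 of 9 fell and of endothelial markers 2 of 9 fell. Both counts lay near the share of all genes tested, of which 25.8% were higher and 26.2% lower. After the correction for transcript length and GC share, 2 fibroblast markers fell, and 2 endothelial markers fell and 1 rose. A length correction, an offset for transcript length and GC share, was run beside the test, and its value is added where it changes a call or moves a fold by over 1.5 times.

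The promoters of 30 of the 43 genes were found in RefSeq's table for the build GRCm38.p6, as windows of 300 bases that run from 250 bases before the transcription start to 50 after it. The motif TGATGNAA, searched on both strands, stood in windows of 3 of these 30 genes, Slc7a11, Slc1a4 and Slc7a7. It stood in 3.97% of all 32851 promoter windows and in windows of 4.51% of all symbols. All 3 were among the 10 of these 30 genes called higher at 2 years, and the other 7 of the 10 hold no such motif in these windows; Slc7a11 reached the level through its 2-year libraries alone. A match is a description of the letters only, and its relation to the calls was not tested. The windows are shown because they hold the motif. Capitals mark the motif, which reads TTGCATCA where it lies on the other strand. They lie at chr3:50443564-50443863, chr11:20332664-20332963 and chr14:54417895-54418194, all on the minus strand, and each is printed in the direction of the gene.
Slc7a11: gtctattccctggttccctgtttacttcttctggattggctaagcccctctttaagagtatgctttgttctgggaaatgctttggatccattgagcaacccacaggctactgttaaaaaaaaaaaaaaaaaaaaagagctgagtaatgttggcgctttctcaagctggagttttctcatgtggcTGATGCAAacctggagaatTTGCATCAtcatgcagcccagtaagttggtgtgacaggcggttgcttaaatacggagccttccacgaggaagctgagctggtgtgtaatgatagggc
Slc1a4: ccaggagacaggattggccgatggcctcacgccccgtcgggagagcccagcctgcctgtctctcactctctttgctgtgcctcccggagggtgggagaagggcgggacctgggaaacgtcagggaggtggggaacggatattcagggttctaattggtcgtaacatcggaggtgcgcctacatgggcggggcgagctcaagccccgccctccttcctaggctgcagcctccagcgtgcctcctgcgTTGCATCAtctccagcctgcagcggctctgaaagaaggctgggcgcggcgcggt
Slc7a7: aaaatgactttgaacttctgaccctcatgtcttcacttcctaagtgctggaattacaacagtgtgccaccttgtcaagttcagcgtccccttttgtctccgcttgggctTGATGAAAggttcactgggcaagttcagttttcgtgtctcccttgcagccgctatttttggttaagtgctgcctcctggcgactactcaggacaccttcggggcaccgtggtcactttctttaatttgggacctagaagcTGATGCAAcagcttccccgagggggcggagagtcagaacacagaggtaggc
In Slc7a11 a copy on each strand stands at bases 185 to 192 and 204 to 211 of the window, facing each other. In Slc7a7 the copy that begins at base 250 spans the annotated start, and a further window of this gene, which overlaps the one shown, holds the same copy.

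Slc3a2 encodes the heavy chain CD98, which carries most light chains to the cell surface. It had 90.9, 132, 83.8 and 136 CPM in 2 years replicates 1 to 4 and 51.6, 40.8, 45.8 and 53.4 CPM in 12 weeks replicates 1 to 4. Every 2-year library was above every 12-week library. The level averaged 111 ± 27.1 CPM at 2 years and 47.9 ± 5.72 CPM at 12 weeks (SD, n = 4 each), 2.31-fold higher (log2 fold change 1.21, SE 0.18, edgeR adjusted p = 0.000247). The other heavy chain, Slc3a1, which pairs with the cystine carrier of the kidney, was below 1 CPM in all libraries, with 5 counts over the 2-year libraries and 40 over the 12-week libraries.

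Among the light chains, Slc7a5 and Slc7a8 (LAT1 and LAT2), which exchange large neutral amino acids such as leucine, rose by similar amounts. Slc7a5 had 19.2, 20.5, 15.8 and 21.8 CPM in 2 years replicates 1 to 4 and 6.55, 5.85, 8.62 and 7.54 CPM in 12 weeks replicates 1 to 4. Its groups did not overlap, and it was 2.71-fold higher (log2 fold change 1.44, SE 0.16, edgeR adjusted p = 4.60e-05). Slc7a8 had 27.2, 21.4, 28.5 and 27.4 CPM at 2 years and 10.3, 9.86, 9.14 and 8.72 CPM at 12 weeks. The lowest 2-year value lay above the highest 12-week value by more than the spread within either group, and the gene was 2.75-fold higher (log2 fold change 1.46, SE 0.14, adjusted p = 1.11e-05).

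Slc7a7, whose product exports cationic amino acids in exchange for neutral ones, had 12.0, 12.6, 13.2 and 13.1 CPM in 2 years replicates 1 to 4 and 6.77, 5.20, 5.66 and 6.61 CPM in 12 weeks replicates 1 to 4. The groups were far apart and tight, and Slc7a7 was 2.10-fold higher (log2 fold change 1.07, SE 0.14, edgeR adjusted p = 0.000130). Slc7a7 overlaps the protein-coding gene Oxa1l in RefSeq, and since the handling of strand is not given, reads of such pairs may be shared; Oxa1l itself was at a log2 fold change of 0.26 and not called. Macrophages express Slc7a7, and their summed markers, given above, did not overlap between the ages either; their part in the rise was not tested.

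Slc7a11 (xCT) imports cystine, the source of cysteine for glutathione, in exchange for glutamate. It was low, at 2.05, 1.88, 1.89 and 1.49 CPM in 2 years replicates 1 to 4 and 0.786, 0.655, 0.370 and 0.649 CPM in 12 weeks replicates 1 to 4. Because it passed the level of 1 CPM in the 2-year libraries alone, some difference is built into its being described. Its log2 fold change was 1.57 (SE 0.33, edgeR adjusted p = 0.00215), and 2.22 after the length correction, its transcript being 9223 nt long.

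The remaining light chains did not pass the test. Slc7a6, which exchanges cationic and neutral amino acids, had 27.1, 33.8, 26.4 and 31.3 CPM at 2 years and 42.1, 31.998, 37.0 and 31.6 CPM at 12 weeks. The groups overlapped (log2 fold change -0.27, SE 0.14, edgeR adjusted p = 0.124). Slc7a10, a carrier of small neutral amino acids that fat cells also express, was at 2.36 ± 1.64 CPM at 2 years and 1.20 ± 0.636 CPM at 12 weeks (SD, n = 4 each; log2 fold change 0.94, adjusted p = 0.184). Without 2 years replicate 1 Slc7a10 was called higher, at 1.28. It overlaps the gene Lrp3, which was lower (log2 fold change -0.45).

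**Figure D2:**
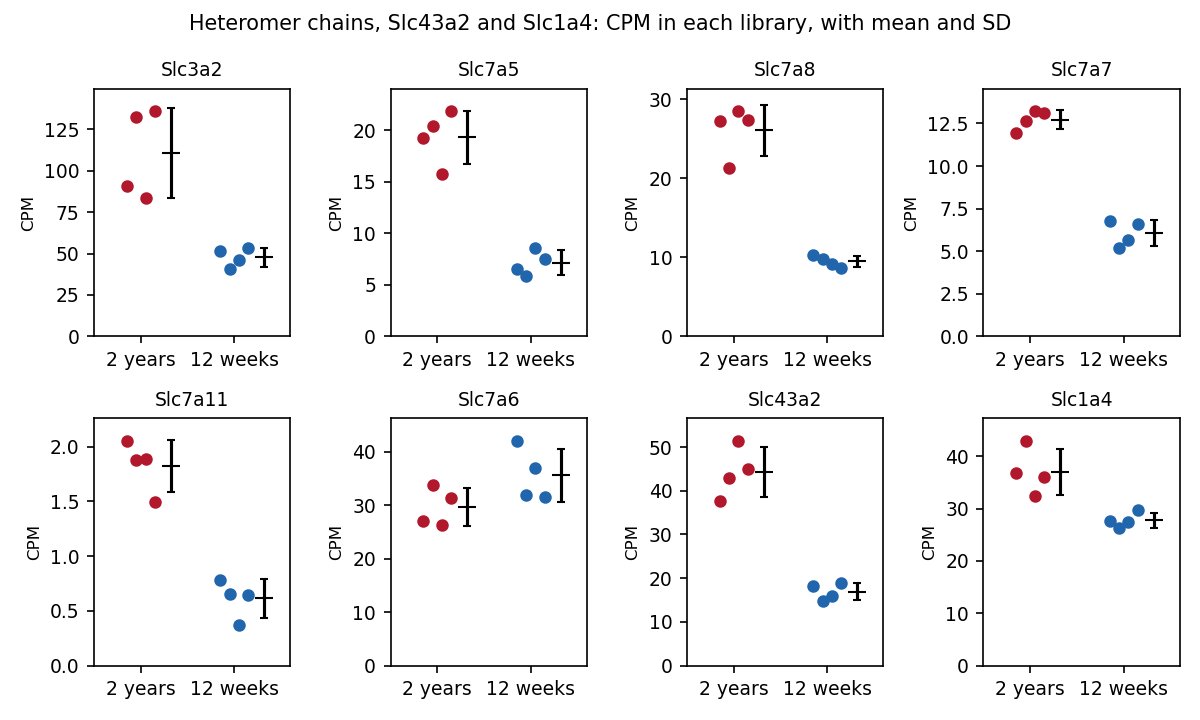
CPM of Slc3a2, 5 light chains, Slc43a2 and Slc1a4 in each library, 2 years left of 12 weeks, with the group mean and SD beside the points and each axis starting at 0. All genes but Slc7a6 have 2-year points above every 12-week point.

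Levels of different genes can be compared per length of transcript, as CPM per kb (kilobase). On that scale the summed level of the 6 light chains was 26.8 ± 1.27 CPM per kb at 2 years and 17.2 ± 1.70 CPM per kb at 12 weeks (SD, n = 4 each). Slc7a6 made up 28.7, 32.6, 26.6 and 30.0% of that sum in 2 years replicates 1 to 4 and 58.9, 55.3, 54.2 and 52.2% in 12 weeks replicates 1 to 4. The shares of Slc7a5, Slc7a7 and Slc7a8 were each higher in every 2-year library than in any 12-week library. At 2 years they averaged 20.5, 20.9 and 23.96%, and at 12 weeks they averaged 11.8, 15.5 and 13.6%. Thus at 12 weeks a single chain accounted for the larger part of light chain transcripts, and at 2 years 4 chains were present at comparable levels. The sum of light chains was 0.708 ± 0.151 times the Slc3a2 level at 2 years and 1.02 ± 0.115 times at 12 weeks. These shares rest on the longest annotated transcript of each gene and were not tested.

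**Figure D3:**
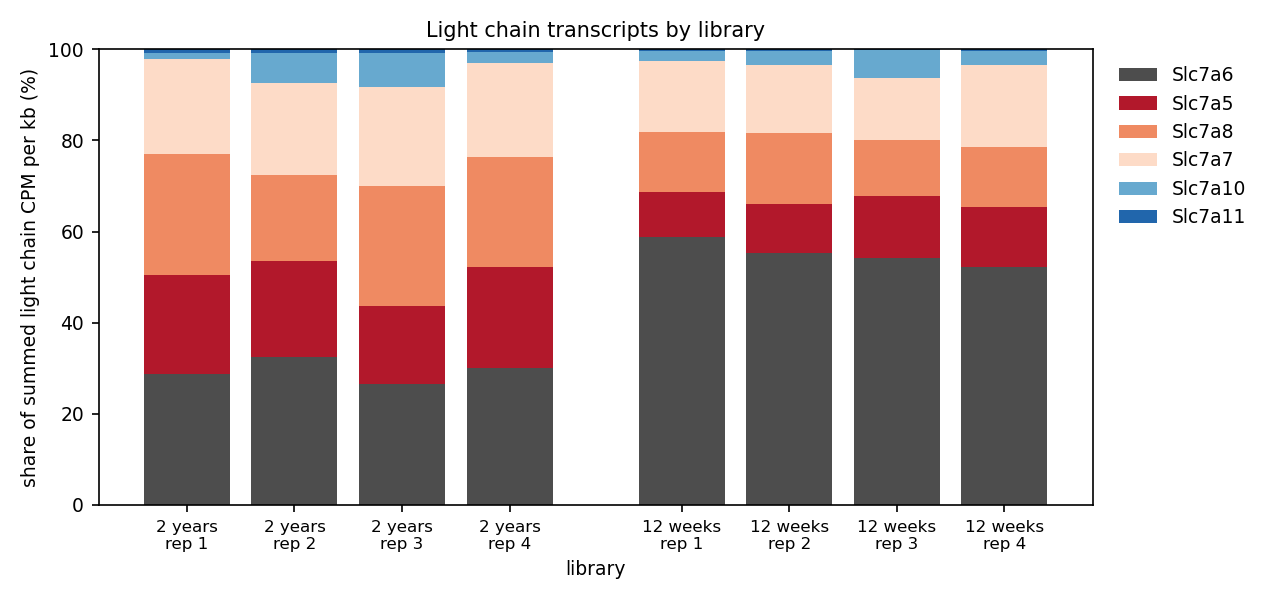
Share of each light chain gene in the summed light chain level (CPM per kb, percent) in each library, 2-year libraries on the left and 12-week libraries on the right. Slc7a6 fills 26.6 to 32.6% of each 2-year bar and 52.2 to 58.9% of each 12-week bar.

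The cationic carriers of family 7, which import arginine, the substrate of nitric oxide synthase, were not called. Slc7a2 had 97.0, 145, 98.2 and 89.4 CPM in 2 years replicates 1 to 4 and 85.5, 92.1, 93.5 and 82.4 CPM in 12 weeks replicates 1 to 4 (log2 fold change 0.28, SE 0.16, edgeR adjusted p = 0.155). A single library, 2 years replicate 2, set most of the difference. Slc7a1 was at 53.0 ± 9.17 CPM at 2 years and 55.2 ± 3.83 CPM at 12 weeks (log2 fold change -0.06, adjusted p = 0.746). Transcripts of Slc7a1 and Slc7a2 are 7179 and 7910 nt long, and after the length correction both were called higher, at 0.83 for Slc7a2 and 0.44 for Slc7a1. Slc7a4 was at 1.52 ± 0.760 CPM at 2 years and 0.820 ± 0.216 CPM at 12 weeks and was not called (log2 fold change 0.86, adjusted p = 0.0917).

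Family 43 holds carriers of large neutral amino acids that work without a heavy chain. Slc43a2 (LAT4) had 37.7, 42.9, 51.4 and 44.9 CPM in 2 years replicates 1 to 4 and 18.3, 14.7, 15.9 and 18.8 CPM in 12 weeks replicates 1 to 4. The 2-year values were all above the 12-week values, 2.61-fold on average (log2 fold change 1.38, SE 0.14, edgeR adjusted p = 1.65e-05), and the log2 fold change was 1.93 after the length correction. Slc43a1 (LAT3) was at 6.25 ± 1.06 CPM at 2 years and 7.29 ± 0.674 CPM at 12 weeks and was not called (log2 fold change -0.23, adjusted p = 0.287). Slc43a3, which carries purine nucleobases, was among the most abundant members, at 166, 159, 181 and 129.6 CPM in 2 years replicates 1 to 4 and 158, 135, 108 and 124 CPM in 12 weeks replicates 1 to 4. Its groups overlapped (log2 fold change 0.27, adjusted p = 0.150).

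Of 9 family 38 carriers measured at this level, 5 fell and 0 rose, against 26.2% of all genes lower, and their median log2 fold change was -0.68. This count and median include Slc38a3, which reached 1 CPM in the 12-week libraries alone, so a difference is built into its being counted. After the length correction 4 fell, 0 rose and the median was -0.47. Summed smooth muscle markers were lower in the same libraries, and their part in these decreases and in that of Slc6a7 was not tested. Slc38a1 (SNAT1), a sodium-coupled importer of glutamine and alanine, had 30.4, 26.6, 25.8 and 30.4 CPM in 2 years replicates 1 to 4 and 48.0, 54.8, 59.3 and 55.8 CPM in 12 weeks replicates 1 to 4. The groups did not overlap and Slc38a1 fell by 0.94 on the log2 scale (SE 0.12, edgeR adjusted p = 8.31e-05).

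Slc38a6 had 3.25, 2.47, 3.90 and 2.29 CPM in 2 years replicates 1 to 4 and 10.1, 7.35, 8.58 and 7.87 CPM in 12 weeks replicates 1 to 4. Every 2-year value was below every 12-week value (log2 fold change -1.52, SE 0.21, edgeR adjusted p = 0.000180). It overlaps the protein-coding gene Trmt5, which was at a log2 fold change of -0.02. Slc38a3 (SNAT3), a glutamine carrier, had 0.770, 0.725, 0.910 and 0.625 CPM at 2 years and 1.48, 1.77, 2.66 and 2.31 CPM at 12 weeks. It passed the level in the 12-week libraries alone, so a difference is built into its being described (log2 fold change -1.45, SE 0.31, adjusted p = 0.00265).

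Slc38a9 is a lysosomal carrier that senses arginine for the kinase complex mTORC1. It had 15.8, 15.6, 13.5 and 14.2 CPM in 2 years replicates 1 to 4 and 23.9, 25.3, 23.97 and 21.8 CPM in 12 weeks replicates 1 to 4, with no overlap (log2 fold change -0.68, SE 0.12, edgeR adjusted p = 0.000698). Its transcript is 8910 nt long, and after the length correction it was at -0.06 and not called. Slc38a11 was lower as well, at 7.51 ± 3.67 CPM at 2 years and 17.0 ± 1.56 CPM at 12 weeks (SD, n = 4 each; log2 fold change -1.16, adjusted p = 0.0134), with the lowest value, 2.54 CPM, in 2 years replicate 3. With that correction and a replicate block its log2 fold change was -1.86.

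The family's most abundant gene was Slc38a2 (SNAT2), which imports small neutral amino acids and is induced when they are scarce. It had 356, 261, 182 and 285 CPM in 2 years replicates 1 to 4 and 312, 306, 312 and 375 CPM in 12 weeks replicates 1 to 4. Replicate 1 at 2 years lay within the 12-week range and the other 2-year values below it, and the gene was not called (log2 fold change -0.27, SE 0.19, edgeR adjusted p = 0.252). Slc38a4 (log2 fold change -0.58), the lysosomal glutamine exporter Slc38a7 (-0.11) and Slc38a10 (-0.09) were not called either, with adjusted p of 0.176 to 0.701. Without 2 years replicate 3, Slc38a4 was called lower, at -0.96.

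Family 1 combines glutamate carriers with exchangers of alanine, serine and cysteine. Slc1a4 (ASCT1), an exchanger of small neutral amino acids, had 36.7, 42.9, 32.3 and 36.0 CPM in 2 years replicates 1 to 4 and 27.7, 26.3, 27.4 and 29.8 CPM in 12 weeks replicates 1 to 4. The difference was small but without overlap, 1.33-fold (log2 fold change 0.41, SE 0.12, edgeR adjusted p = 0.0132). Slc1a5 (ASCT2), a glutamine exchanger, had 118, 175, 163 and 125 CPM at 2 years and 176, 119, 186 and 155 CPM at 12 weeks. Both ages covered the same range (log2 fold change -0.13, adjusted p = 0.567).

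Slc1a3 (GLAST), a glutamate importer best known from glia, was at 13.2 ± 2.30 CPM at 2 years and 8.58 ± 3.87 CPM at 12 weeks and was not called (SD, n = 4 each; log2 fold change 0.62, edgeR adjusted p = 0.0748). Its highest 12-week value, 14.2 CPM, was in 12 weeks replicate 3, and without that library Slc1a3 was called higher, at 0.97. Slc1a2 (GLT-1) stood near the level of 1 CPM, at 1.03 ± 0.197 CPM at 2 years and 1.45 ± 0.814 CPM at 12 weeks (log2 fold change -0.50, adjusted p = 0.420). Without 12 weeks replicate 1, Slc1a2 was called lower, at -0.85, and after the length correction it was at 0.39 and not called.

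In family 6, 3 of 8 genes rose and 2 fell, against 25.8% higher and 26.2% lower among all genes tested. Slc6a7, which carries proline and is known from brain synapses, had 2.71, 3.92, 4.10 and 4.31 CPM in 2 years replicates 1 to 4 and 29.5, 23.4, 22.7 and 19.95 CPM in 12 weeks replicates 1 to 4. The highest 2-year value was well below the lowest 12-week value, and the gene was 6.38-fold lower at 2 years (log2 fold change -2.67, SE 0.19, edgeR adjusted p = 2.14e-06). Slc6a9 (GLYT1), a glycine importer, had 32.6, 42.0, 27.8 and 31.4 CPM at 2 years and 56.1, 43.2, 47.7 and 54.2 CPM at 12 weeks. The groups came close to each other but did not overlap (log2 fold change -0.59, SE 0.15, adjusted p = 0.00667). Slc6a9 overlaps the gene Ccdc24, which was also lower (log2 fold change -1.67). Over all libraries Ccdc24 averaged 1.93 CPM and Slc6a9 41.9 CPM.

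Slc6a6, the taurine carrier, had the highest mean level per length of all 43 genes at 2 years. It had 389, 489, 506 and 496 CPM in 2 years replicates 1 to 4 and 397, 326.4, 294.7 and 295.1 CPM in 12 weeks replicates 1 to 4. The value of 2 years replicate 1 lay just below that of 12 weeks replicate 1, and the other libraries were apart (log2 fold change 0.52, SE 0.15, edgeR adjusted p = 0.0125). Without 12 weeks replicate 3 and 2 years replicate 3 it was not called (log2 fold change 0.44). Slc6a8, the creatine carrier, was at 103 ± 6.86 CPM at 2 years and 109 ± 13.5 CPM at 12 weeks (log2 fold change -0.08, adjusted p = 0.596).

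Slc6a17, a carrier of neutral amino acids in synaptic vesicles, had 22.3, 24.4, 18.5 and 23.2 CPM in 2 years replicates 1 to 4 and 15.6, 11.1, 9.32 and 11.6 CPM in 12 weeks replicates 1 to 4. All 2-year values were higher (log2 fold change 0.89, SE 0.17, edgeR adjusted p = 0.00127). Slc6a4, the serotonin transporter, had 2.11, 6.78, 9.69 and 3.16 CPM at 2 years and 1.44, 0.655, 0.925 and 1.54 CPM at 12 weeks. It varied widely among the 2-year mice, all of which were above the 12-week mice (log2 fold change 2.24, SE 0.48, adjusted p = 0.00273). The 2-year libraries fell in the same order by summed adipocyte markers, given with Slc2a4, but the 12-week libraries did not. There replicate 3 had the highest adipocyte sum, 800 CPM, and 0.925 CPM of Slc6a4, below replicates 1 and 4. The part of fat in the Slc6a4 values was not tested. The noradrenaline carrier Slc6a2 (log2 fold change -0.79, adjusted p = 0.0795) and the GABA carrier Slc6a13 (0.59, adjusted p = 0.450) were near 1 CPM and not called. Without 12 weeks replicate 3, which held the most Slc6a13 at that age, Slc6a13 was at 1.43 and not called. The nerve markers Th and Dbh were at most 0.518 and 0.185 CPM in any library.

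**Figure D4:**
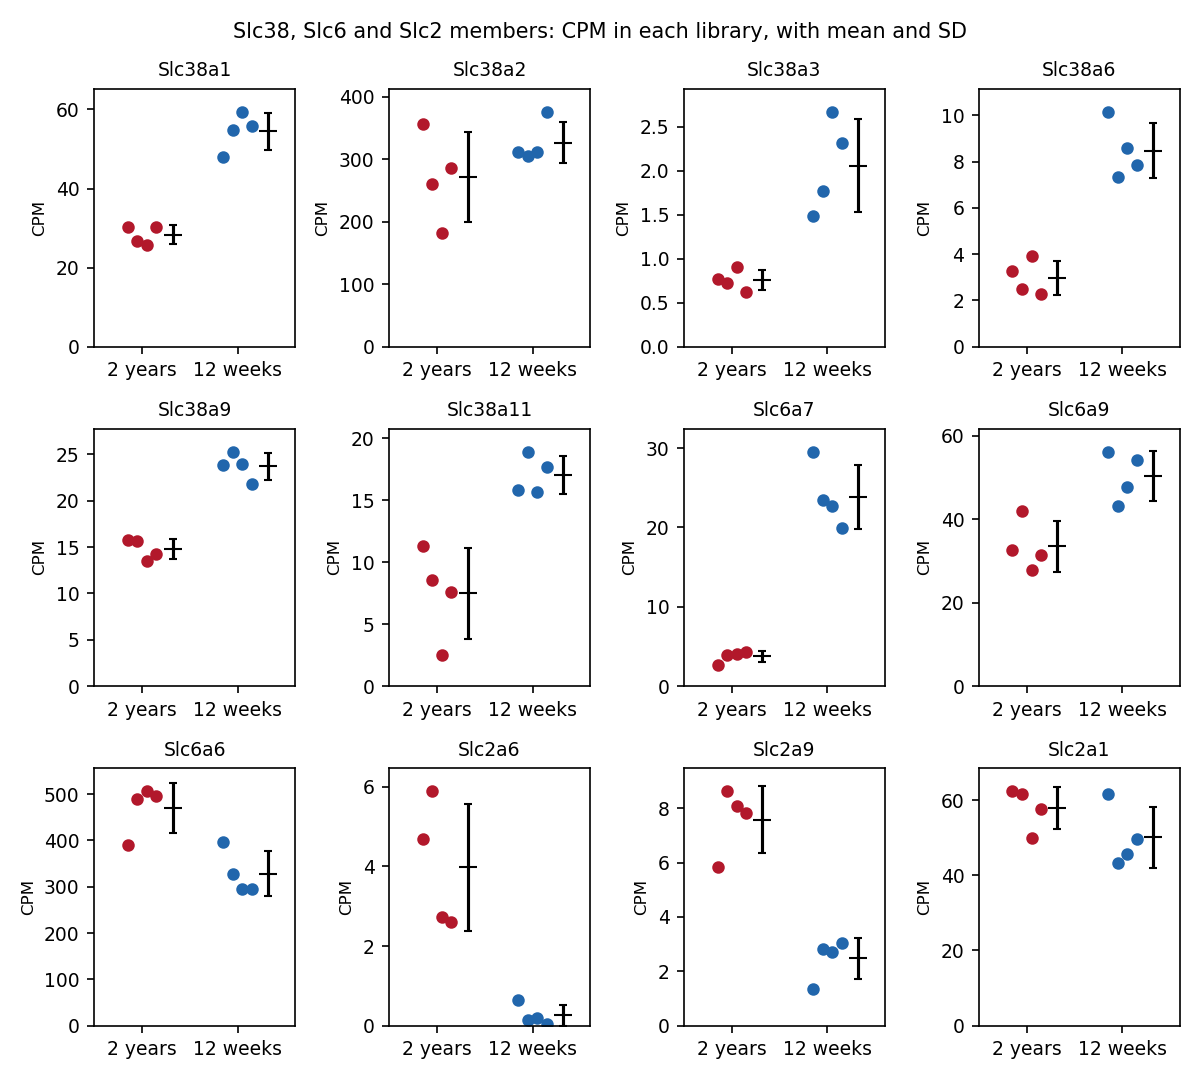
CPM of 12 members of families 38, 6 and 2 in each library, 2 years left of 12 weeks, with the group mean and SD beside the points and each axis starting at 0. Slc6a7 lies at 2.71 to 4.31 CPM at 2 years and 19.95 to 29.5 CPM at 12 weeks, while Slc38a2 and Slc2a1 overlap.

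Of 9 hexose carriers 2 rose and 2 fell, near the 25.8% higher and 26.2% lower among all genes tested, and with a replicate block 0 fell. The count of rises includes Slc2a6, which reached 1 CPM in the 2-year libraries alone, so a difference is built into its being counted. Slc2a1 (GLUT1), the most abundant, had 62.3, 61.5, 49.9 and 57.7 CPM in 2 years replicates 1 to 4 and 61.6, 43.1, 45.8 and 49.6 CPM in 12 weeks replicates 1 to 4. The ranges overlapped (log2 fold change 0.21, SE 0.14, edgeR adjusted p = 0.229). Per length it made up 35.8 ± 3.54% of the summed level of these 9 genes at 2 years and 33.7 ± 4.79% at 12 weeks (SD, n = 4 each), and that sum was 49.8 ± 5.31 CPM per kb at 2 years and 45.8 ± 5.52 CPM per kb at 12 weeks.

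Slc2a6 (GLUT6), a hexose carrier of lysosomal membranes in macrophages, had 4.68, 5.89, 2.73 and 2.60 CPM in 2 years replicates 1 to 4 and 0.655, 0.154, 0.185 and 0.0406 CPM in 12 weeks replicates 1 to 4. It passed the level in the 2-year libraries alone, so some difference is built into its being described. Its log2 fold change was 3.95 (SE 0.59, edgeR adjusted p = 0.000259), and 4.90 without 12 weeks replicate 1, the highest of the 12-week libraries. Slc2a9 (GLUT9), a urate carrier, had 5.82, 8.61, 8.06 and 7.81 CPM at 2 years and 1.35, 2.81, 2.70 and 3.04 CPM at 12 weeks. It was 3.04-fold higher with no overlap (log2 fold change 1.61, SE 0.26, adjusted p = 0.000442). Macrophage markers rose in the same libraries, and their part in these rises was not tested.

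Slc2a12 (GLUT12), a glucose carrier of muscle and fat, had 3.28, 3.07, 1.43 and 3.09 CPM in 2 years replicates 1 to 4 and 3.84, 3.97, 6.36 and 5.88 CPM in 12 weeks replicates 1 to 4. It was lower without overlap (log2 fold change -0.87, SE 0.29, edgeR adjusted p = 0.0268), but was not called without 12 weeks replicate 3 (-0.74) or 12 weeks replicate 4 (-0.79), without replicate 3 of both ages (-0.53) or with a replicate block (-0.88). Slc2a12 overlaps Tbpl1, which was at -0.25 and not called. Slc2a13 (HMIT), a myo-inositol carrier, had 25.6, 26.6, 15.6 and 25.8 CPM at 2 years and 23.6, 38.9, 36.5 and 38.5 CPM at 12 weeks. The lowest 12-week value fell within the 2-year range (log2 fold change -0.55, SE 0.20, adjusted p = 0.0379). After the length correction it was at -0.18 and not called, and neither was it without any 1 of 12 weeks replicates 2, 3 and 4 and 2 years replicates 1 and 3 (-0.60 to -0.40), without replicate 3 of both ages (-0.37) or with a replicate block (-0.55).

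The other hexose carriers were not called. Slc2a10 (GLUT10), whose loss in humans causes arterial tortuosity syndrome, was at 22.8 ± 2.60 CPM at 2 years and 28.3 ± 4.82 CPM at 12 weeks (SD, n = 4 each; log2 fold change -0.31, SE 0.15, edgeR adjusted p = 0.0912). The high-affinity glucose carrier Slc2a3 (GLUT3) was at 7.65 ± 4.04 CPM at 2 years and 4.68 ± 0.663 CPM at 12 weeks, with 13.7 CPM in 2 years replicate 2 alone (log2 fold change 0.71, adjusted p = 0.0677). Slc2a3 was called by DESeq2, which called 55.0% of all genes, 27.6% higher and 27.4% lower, and without 2 years replicate 3 (0.85). The intracellular carrier Slc2a8 (GLUT8) was at a log2 fold change of 0.41 (adjusted p = 0.141), and was called without 12 weeks replicate 1 (0.61).

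Slc2a4 (GLUT4), the insulin-regulated carrier, had 12.0, 19.4, 21.9 and 9.20 CPM in 2 years replicates 1 to 4 and 7.64, 11.2, 30.3 and 20.6 CPM in 12 weeks replicates 1 to 4. The ages overlapped broadly (log2 fold change -0.17, SE 0.43, edgeR adjusted p = 0.764), and the sign changed to 0.24 without 12 weeks replicate 3. Aortas carry perivascular fat, and the summed level of 10 adipocyte markers was 433, 840, 1172 and 440.3 CPM in 2 years replicates 1 to 4 and 171, 211, 800.2 and 331 CPM in 12 weeks replicates 1 to 4. At each age the library with the most Slc2a4 was also the one with the most adipocyte marker RNA, and the same held for Slc7a10. Heart muscle markers summed to 1215 CPM in 12 weeks replicate 3 and 229 to 296 CPM in the other 12-week libraries, against 95.4 to 183 CPM at 2 years. Of the adipocyte markers 2 of 10 rose and 0 fell, against 25.8% higher and 26.2% lower among all genes tested. After the length correction 0 adipocyte markers rose and 0 fell. The part of fat and heart muscle in the Slc2a4 and Slc7a10 values was not tested.

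**Figure D5:**
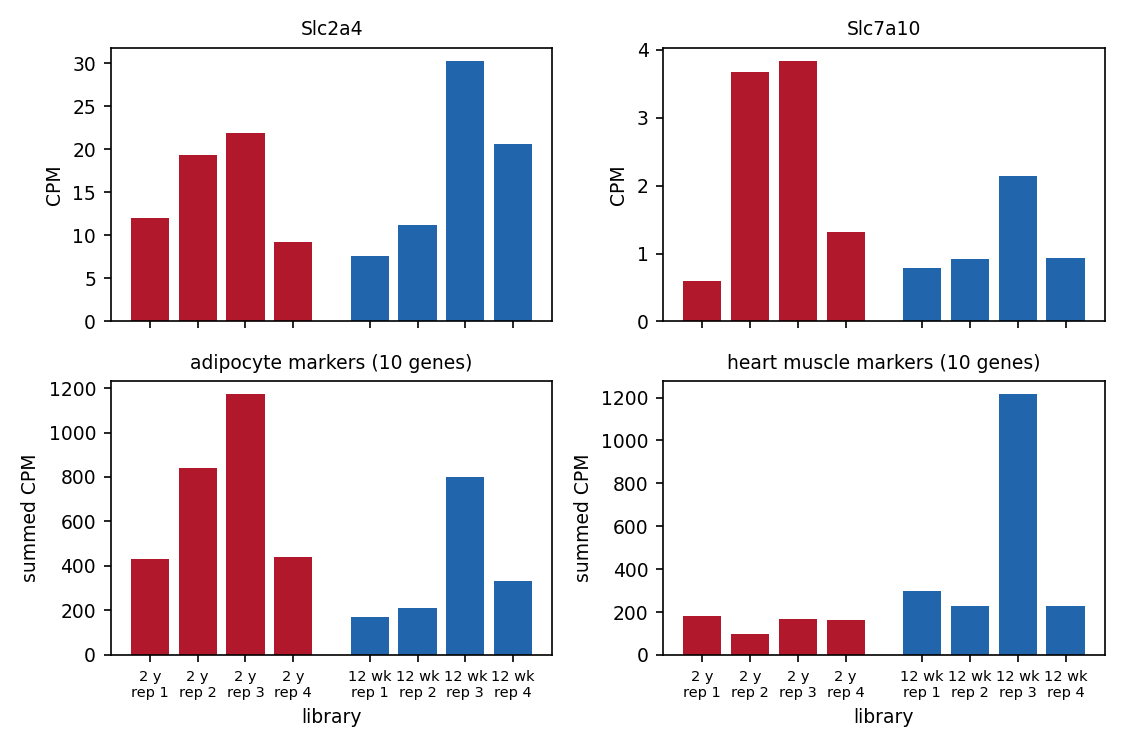
Slc2a4 and Slc7a10 in CPM (top) and the summed CPM of 10 adipocyte and 10 heart muscle markers (bottom) in each library, 2-year libraries in red on the left and 12-week libraries in blue on the right. Adipocyte markers, Slc2a4 and Slc7a10 are all highest in replicate 3 of each age, and heart muscle markers in 12 weeks replicate 3.

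By level per length the most abundant transporters at 2 years were Slc6a6 (76.0 ± 8.76 CPM per kb), Slc43a3 (61.5 ± 8.28), Slc38a2 (58.1 ± 15.4) and Slc1a5 (52.6 ± 10.1), followed by Slc3a2 (39.3 ± 9.64). At 12 weeks the order was Slc38a2 (70.0 ± 6.97 CPM per kb), Slc1a5 (57.5 ± 10.7), Slc6a6 (53.1 ± 7.76) and Slc43a3 (50.9 ± 8.09), with Slc3a2 in rank 7 (17.0 ± 2.03) (SD, n = 4 each). Within each age the ranges of neighbours among the first 4 overlapped, so their order is not set beyond the spread of the libraries.

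Among genes around these carriers, the list of 20 amino acid response genes had 10 higher and 3 lower of 19 tested, with a median log2 fold change of 0.49, against 25.8% higher among all genes. Psat1, an enzyme of serine synthesis, was at 22.6 ± 3.88 CPM at 2 years and 10.1 ± 1.86 CPM at 12 weeks (SD, n = 4 each; log2 fold change 1.17, edgeR adjusted p = 0.000254). The lipoprotein receptor Vldlr (-1.36) and the amino acid sensing kinase Eif2ak4 (-1.31) were lower. Asns, asparagine synthetase, rose (1.57). The Atf4 transcript, whose protein is controlled mainly at translation, was singled out after its value was seen and was lower (-0.75, edgeR adjusted p = 0.00538).

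The list of GLUT4 trafficking and insulin signalling genes had 1 higher and 9 lower of 18 tested, with a median log2 fold change of -0.36, against 26.2% lower among all genes. The insulin receptor substrate Irs1 was at 21.2 ± 4.64 CPM at 2 years and 55.9 ± 3.00 CPM at 12 weeks (SD, n = 4 each; log2 fold change -1.40, edgeR adjusted p = 3.50e-05), and the insulin receptor Insr (-1.37) and the vesicle protein Vamp2 (-0.76) were lower too. These transcripts are long, with a median of 5931 nt, and after the length correction 3 were higher and 6 lower, against 22.6% higher and 28.4% lower among all genes, with Irs1 at -0.73, Insr at -0.72 and Vamp2 at -1.02.

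The 26 symbols below the level were tested only in part. Of these, 8 had 0 counts in every library, namely Slc2a7, Slc6a5, Slc6a11, Slc6a16, Slc6a18, Slc6a21, Slc7a9 and Slc7a12. A count of 0 allows a level of up to 0.0885 to 0.185 CPM, depending on the library (3 counts over the unscaled library total, for counting error only). The other 18 included Slc1a1, Slc1a6, Slc1a7, Slc2a2, Slc2a5, Slc3a1, Slc6a3, Slc6a12, Slc6a14, Slc6a15, Slc6a19, Slc7a3, Slc7a13, Slc7a14, Slc7a15, Slc38a5 and Slc38a8. Slc1a1, Slc6a14 and Slc7a3 had enough counts to be tested. Just inside the level, Slc6a13, Slc7a4 and Slc7a10 reached 1 CPM in 3 of the 2-year libraries and 1 of the 12-week libraries. Just outside it, Slc6a14 had 1.06, 0.938, 1.17 and 0.660 CPM in 2 years replicates 1 to 4 and 0.349, 0.616, 0.444 and 0.406 CPM in 12 weeks replicates 1 to 4.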

How the data were processed

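The authors deposited raw counts per gene symbol, per the file headers, 1 table for each of 8 aortic libraries. RNA was column-purified total RNA, per the labels' protocols. The submitters' processing notes name the build GRCm39; aligner, counter, annotation and strand handling remain not given in the sources used here. Library totals were 16251986 to 33880690 counts.

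From these counts, genes passing edgeR's filterByExpr (13978) were scaled by TMM and tested with the edgeR quasi-likelihood F test, age as the sole term, with Benjamini-Hochberg adjustment over all genes tested and a threshold of 0.05. SE is the absolute log2 fold change over the root of F. CPM use TMM-scaled library sizes. Whether mice of an age were housed or processed separately is not given, so p-values measure the spread between these libraries. Pairs of libraries within an age differed by 22.5 to 150.4 times the counting variance, so none was counted as a copy. The fit was tested on simulated data.

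Transcript lengths and GC shares are of the longest protein-coding transcript in GENCODE M21 (GRCm38), found for 97.5% of tested genes and all 69 transporter symbols. The offset removes a trend of each library on length and GC (natural splines, 4 degrees of freedom each). Alternatives were median-of-ratios size factors, DESeq2, limma voom, no low-count filter, the replicate number as a block, the offset with and without that block, each library left out, and both replicate 3 libraries left out. Members, lists, the naming rule (all genes at the level; every-library values for the most significant called members and the most abundant gene of each role; up to 3 called genes per pathway list) and marker lists were chosen with earlier results of these data known. Tools were edgeR 4.0.16, DESeq2 1.42.0 and limma 3.58.1 under R 4.3.3. No set test was made. Some genes that the naming rule covers are not reported here.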

Additional observations from a re-analysis of the deposited data

Results flagged for a closer look

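Among 110 groups of 4 libraries (43 genes and 12 marker sums at each age), 13 held a library far from the other 3, where chance gives about 1 in 20 groups. Slc6a6 stood below the others in 2 years replicate 1 at 389 CPM, with 489 to 506 CPM in the other 3 libraries of that age. Slc2a3 stood above the others in 2 years replicate 2 at 13.7 CPM, with 5.20 to 5.90 CPM in the other 3 libraries of that age. Slc7a2 stood above the others in 2 years replicate 2 at 145 CPM, with 89.4 to 98.2 CPM in the other 3 libraries of that age. The summed level of red blood cell markers stood above the others in 2 years replicate 2 at 7957 CPM, with 1780 to 2482 CPM in the other 3 libraries of that age. Slc2a12 stood below the others in 2 years replicate 3 at 1.43 CPM, with 3.07 to 3.28 CPM in the other 3 libraries of that age. Slc2a13 stood below the others in 2 years replicate 3 at 15.6 CPM, with 25.6 to 26.6 CPM in the other 3 libraries of that age. The summed level of Schwann cell and nerve markers stood above the others in 2 years replicate 3 at 325 CPM, with 224 to 235 CPM in the other 3 libraries of that age. Slc2a13 stood below the others in 12 weeks replicate 1 at 23.6 CPM, with 36.5 to 38.9 CPM in the other 3 libraries of that age. Slc38a4 stood below the others in 12 weeks replicate 1 at 5.20 CPM, with 9.47 to 10.2 CPM in the other 3 libraries of that age. Slc7a10 stood above the others in 12 weeks replicate 3 at 2.15 CPM, with 0.786 to 0.933 CPM in the other 3 libraries of that age. The summed level of heart muscle markers stood above the others in 12 weeks replicate 3 at 1215 CPM, with 229 to 296 CPM in the other 3 libraries of that age. Slc38a2 stood above the others in 12 weeks replicate 4 at 375 CPM, with 306 to 312 CPM in the other 3 libraries of that age. Slc43a1 stood below the others in 12 weeks replicate 4 at 6.29 CPM, with 7.51 to 7.73 CPM in the other 3 libraries of that age.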

How the results depend on the processing

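Of the 21 transporter genes called, 17 had the same call under all 16 alternatives, and the exceptions were Slc2a12, Slc2a13, Slc6a6 and Slc38a9. The 17 include Slc2a6, Slc7a11 and Slc38a3. These reached 1 CPM in libraries of 1 age only, so a difference is built into their being counted. Beside the settings given with each gene, the offset and block together ended the calls of Slc2a12 (-0.83), Slc2a13 (-0.19) and Slc38a9 (-0.07). Bulk counts of low genes such as Slc7a11, Slc38a3 and Slc6a4 rest on few reads per library, and lengths are of 1 annotated transcript per gene. Replicate numbers did not pair the libraries: the correlations of same-numbered deviations from the age means were -0.31 to 0.05, and no 2-year library correlated best with its own number. With the replicate block 13 transporters were higher and 7 lower (3112 and 3320 of all genes), 0 hexose carriers were lower, 2 of family 1 were higher and 0 GLUT4 trafficking genes were higher. With the length and GC offset 14 and 7 transporters were called, 1 hexose carrier was lower, 2 cationic carriers were higher, 3 GLUT4 trafficking genes were higher, 3 amino acid sensing genes were higher and 0 glutamine use genes were lower. With the offset and the replicate block, where 19.6% of all genes were higher and 25.3% lower, these were 15 and 6 transporters, 0 hexose carriers lower, 2 cationic carriers and 2 of family 1 higher, 3 GLUT4 trafficking genes higher and 5 lower, 2 amino acid sensing genes higher and 0 glutamine use genes lower. With no low-count filter 0 GLUT4 trafficking genes were higher. Without both replicate 3 libraries 0 hexose carriers were lower, 2 of family 1 were higher and 0 GLUT4 trafficking genes were higher. With a single library left out, 44.5 to 52.6% of all genes were called. Transporters called higher numbered 12 to 13 and lower 7 to 10, hexose carriers lower 0 to 2, family 1 higher 1 to 2 and lower 0 to 1, GLUT4 trafficking genes higher 0 to 1, and glutamine use genes lower 0 to 1. The sign changed for genes that were not called: Slc1a2 (0.39 with the offset, 0.60 with the offset and block), Slc2a4 (-0.42 to 0.24 with a library left out, above 0 without 12 weeks replicate 3 or 2 years replicate 4, and 0.04 without both replicate 3 libraries), Slc6a8 (0.13 with the offset and 0.13 with the offset and block, -0.15 to 0.0016 with a library left out, above 0 without 12 weeks replicate 1), Slc7a1 (0.44 with the offset, 0.42 with the offset and block, -0.16 to 0.033 with a library left out, above 0 without 2 years replicate 3) and Slc38a10 (0.23 with the offset, 0.21 with the offset and block, -0.22 to 0.021 with a library left out, above 0 without 2 years replicate 2). The causes were not tested. CPM from raw library totals gave the same number of 43 genes at the level.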

Other observations

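Of 27 tested genes that sense amino acids upstream of mTORC1, 7 were higher and 8 lower at 2 years, near the 25.8% higher and 26.2% lower among all genes, with a median log2 fold change of -0.24. The Ragulator subunit Lamtor1 was higher (log2 fold change 1.13, or 0.51 after the length correction). The subunits Lamtor2 (0.59), Lamtor4 (0.63) and Lamtor5 (0.57) were higher too. With the offset, however, Lamtor2 and Lamtor5 were lower (-0.34 each) and Lamtor4 was not called (-0.14). Lamtor3 was not called (-0.04), and was lower with the offset (-0.74). The GATOR1 subunit Depdc5 was lower (-0.81), though not called with the offset (-0.23). With the offset 3 of the 27 genes were higher and 9 lower, against 22.6% and 28.4% of all genes.

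Among 19 genes that use glutamine, glutamate and cystine, 6 were higher and 1 lower, 36.8% in all, against 52.0% of all genes called, 25.8% higher and 26.2% lower. The glutathione peroxidase Gpx4, which reduces lipid peroxides, was at 214 ± 53.9 CPM at 2 years and 100.6 ± 10.8 CPM at 12 weeks (SD, n = 4 each; log2 fold change 1.09, edgeR adjusted p = 0.000433, and 0.50 with the offset). Glutamine synthetase Glul was higher as well (0.72). The catalytic subunit of glutathione synthesis, Gclc, singled out after its value was seen because it uses the cysteine that Slc7a11 supplies, was at -0.17 and not called (adjusted p = 0.364).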
